A study of Danio rerio with 12 samples.

Results

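Serotonin genes were described across the whole brains of bystander zebrafish: those that encode its synthesis, uptake, receptors and breakdown, and the transcription factor of the neurons that make it. The 10 genes were tph1a, tph1b, tph2, fev, slc6a4a, slc6a4b, htr1aa, htr1ab, htr1b and mao. They were found by symbol in the platform annotation of the array, where each had 1 probe set, and all 10 were measured, of 18338 genes in all. The rule that picks their probe sets uses no difference between groups or fish. All fish were adult males of the AB wild-type strain, 11 months old, kept alone overnight and then tested for 30 min, with 3 fish in each of 4 groups and 1 brain per array. Bystanders to interacting conspecifics (BIC) were attentive fish that watched 2 males fighting behind a one-way mirror. Another pair of groups saw 2 males that did not interact, namely the bystanders attentive to them (BANIC) and the inattentive ones (BINIC). Isolated fish (ISOL) saw none. The 3 fish of each group were picked by the authors as representatives of a behavioral profile, so they are not a random draw from their treatment. Fish are named below by group and replicate number, as in BIC1.

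Serotonin is made from tryptophan by tryptophan hydroxylase, the rate-limiting enzyme of the pathway, and then by aromatic amino acid decarboxylase. Neurons that use it as a transmitter sit mainly in the raphe nuclei of the hindbrain and, in fish, also in the hypothalamus and pretectum. The pineal gland, a light-sensitive organ on the roof of the brain, makes serotonin as well and turns it into melatonin. In zebrafish, tph2 is transcribed in raphe neurons and in the pineal, and tph1a in the pineal, the retina and parts of the forebrain. Whole-brain RNA therefore mixes several sources, and fewer cells of a type cannot be told apart from less RNA per cell.

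All values below are log2 values from RMA, which corrects background, equalizes the arrays and summarizes each probe set, so a step of 1 stands for a doubling. Array medians lay between 5.54 and 5.59, and the values carry no detection call. With 3 arrays in a group, their number sets the precision. The 10 neuron markers looked at were all measured, with gene means from 8.27 to 11.0, and their mean over the list varied from 9.57 to 9.68 between fish. Some single markers moved more, as snap25b from 9.26 in ISOL1 to 9.66 in BINIC1, and stmn2a from 9.37 in BINIC1 to 9.77 in BIC2. So the list mean does not show that the share of neurons was equal between brains. The probe sets of duplicated genes (tph1a and tph1b, slc6a4a and slc6a4b, htr1aa and htr1ab) may take up RNA of each other's partner, which was not tested.

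The hydroxylase genes tph2 and tph1a varied most between individual brains, and the variation ran across the groups. tph2 measured 5.38, 4.89 and 5.52 in the BIC fish, 6.29, 5.55 and 5.38 in BANIC, 6.40, 5.16 and 5.37 in BINIC, and 5.03, 6.15 and 6.44 in ISOL. Only BANIC1, BINIC1, ISOL2 and ISOL3 were above 6, with an empty stretch of 0.60 between them and the next fish, so 0 BIC, 1 BANIC, 1 BINIC and 2 ISOL fish were high. tph1a measured 5.43, 5.48 and 5.50 in BIC, 6.41, 5.33 and 5.27 in BANIC, 6.16, 5.41 and 5.29 in BINIC, and 5.08, 6.21 and 5.94 in ISOL. The same 4 fish were the highest for tph1a, and an empty stretch of 0.44 divided them from the others. Group means of tph2 were 5.26 ± 0.33 in BIC, 5.74 ± 0.48 in BANIC, 5.64 ± 0.67 in BINIC and 5.88 ± 0.74 in ISOL (SD, n = 3). The order of these means rose from BIC to BINIC, BANIC and ISOL, but every neighbour in that order overlapped. For tph1a the means were 5.47 ± 0.04 in BIC, 5.67 ± 0.64 in BANIC, 5.62 ± 0.47 in BINIC and 5.74 ± 0.59 in ISOL (SD, n = 3), and the BIC values lay inside the range of each other group. The third hydroxylase gene, tph1b, did not share the division: it ranged from 4.05 in ISOL3 to 4.37 in BIC3, with no gap above 0.10.

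**Figure D1:**
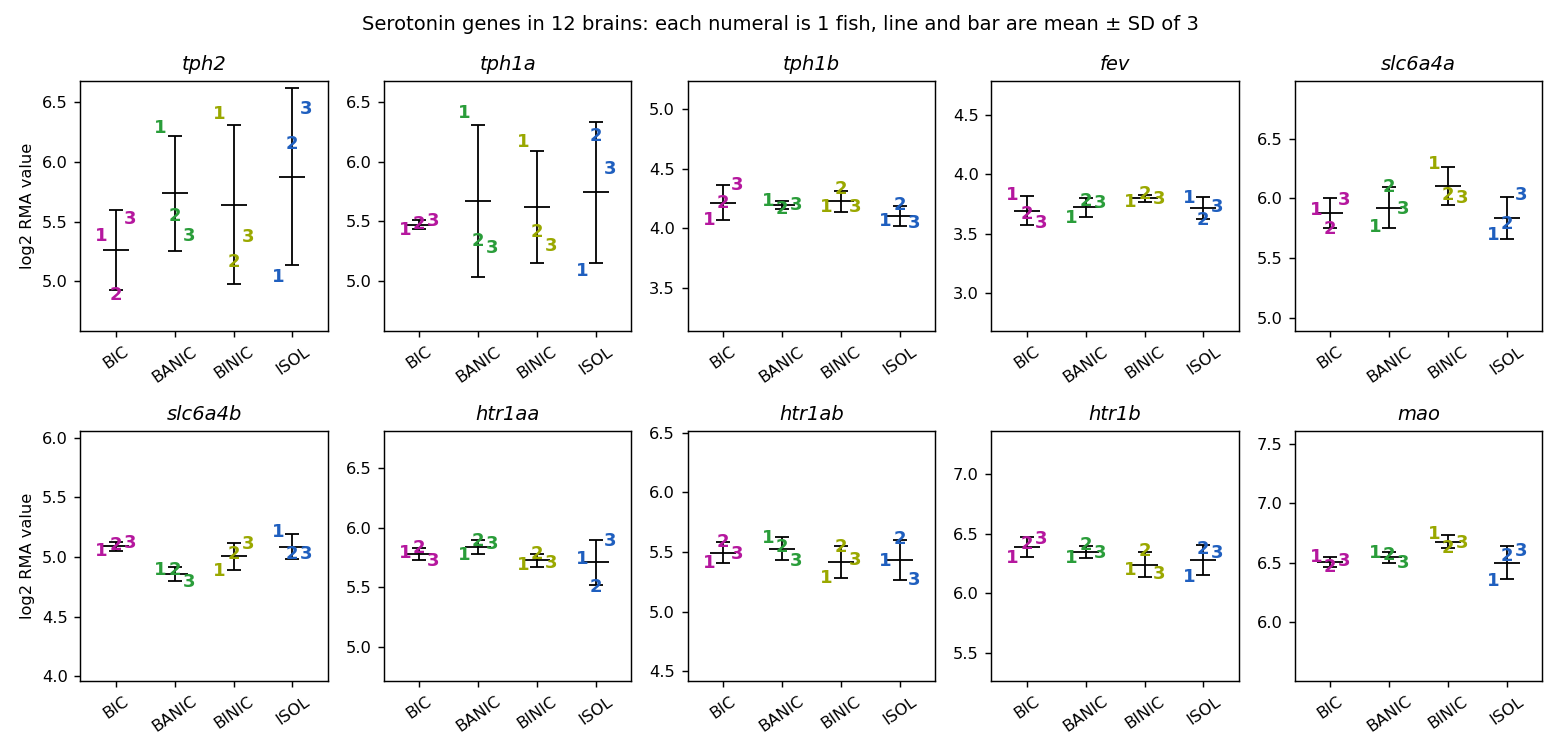
Log2 RMA value of each serotonin gene (vertical axis, the same span in every panel) in the 4 groups; each numeral is 1 fish and the line and bar are mean ± SD of 3 fish. In the panels of tph2 and tph1a, BANIC1, BINIC1, ISOL2 and ISOL3 stand above all other fish, while the other 8 genes spread over 0.60 or less.

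Other genes of the pineal had the same 4 fish highest, with narrower margins than tph1a and tph2. aanat2, which encodes the penultimate enzyme of melatonin synthesis in the pineal and takes serotonin as its substrate, measured 5.65 in BANIC1, 5.52 in BINIC1, 5.42 in ISOL2 and 5.54 in ISOL3. No other fish exceeded 5.26. bsx, a homeobox gene of the pineal and hypothalamus, measured 5.78, 5.50, 5.62 and 5.57 in the same fish in that order, against at most 5.33 elsewhere. otx5, a homeobox gene of the pineal and retina, measured 2.82, 3.00, 3.18 and 2.97 in them, against at most 2.77 elsewhere. For otx5, BANIC1 thus stood close to BIC1, at a low signal (percentile 4.48 of the gene means). Of 7 pineal markers listed, 4 were measured, and 3 of them had these 4 fish at the top. The exception was gngt2b, a transducin gene of pineal and cone cells, which was lowest in BINIC1 (3.58) and highest in BINIC3 (4.78). The mean over the 4 pineal markers was 4.35, 4.21 and 4.24 in BIC, 4.59, 4.30 and 4.22 in BANIC, 4.40, 4.27 and 4.38 in BINIC, and 4.27, 4.57 and 4.56 in ISOL. By this mean BINIC1 was not set apart from BINIC3 and BIC1. The sources used here do not say whether the pineal gland stayed on every brain at dissection, or whether retinal tissue was taken along. So for tph2, tph1a, aanat2, bsx and otx5, such tissue in only some samples cannot be told apart from a different level of transcription.

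gch1, whose product starts the synthesis of tetrahydrobiopterin, the cofactor of tryptophan and tyrosine hydroxylases, measured 6.07 in BANIC1, 6.26 in BINIC1, 6.15 in ISOL2 and 6.18 in ISOL3. It was at most 5.91 in the others, the only one of 7 measured cofactor genes with that division. Of the photoreceptor markers, gnat1, the rod transducin gene, measured 6.59, 6.24, 6.32 and 6.56 in these fish. It also measured 5.63 in BINIC3 and at most 3.24 in the others. pde6a, a rod phosphodiesterase gene, measured 4.24, 4.55, 4.79 and 4.40, then 4.09 in BINIC3 and at most 3.66 in the others. Thus 2 of 9 measured photoreceptor markers shared the division. BINIC3 departed from it, with the highest mean of the photoreceptor list (4.60, against 4.22 in BANIC1, 4.23 in BINIC1, 4.26 in ISOL2 and 4.33 in ISOL3, and 3.41 to 3.61 in the other fish). The cone genes gnat2 (5.96) and opn1sw1 (5.17), and rom1a (5.10), a gene of photoreceptor discs, were also highest there. Yet in BINIC3 tph2 measured 5.37, tph1a 5.29 and aanat2 4.89, the lowest value of that gene.

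Of the genes of serotonergic neurons beside tph2, slc6a4a, slc18a2 and fev did not follow this division, and ddc did so only within groups. The highest value of slc6a4a was in BINIC1, but those of BANIC1 (5.76) and ISOL2 (5.78) were among the lowest. For slc18a2, which encodes the vesicular monoamine transporter, the highest fish was BINIC2 (6.38), while BANIC1 measured 5.95 and ISOL2 5.83. ddc, the decarboxylase gene, measured 5.14 in BANIC1, 5.03 in BINIC1, 5.06 in ISOL2 and 5.16 in ISOL3, with BIC2 at 5.06 among them, so within BANIC, BINIC and ISOL these fish were the highest for ddc too. insm1a, listed with the transcription factors of serotonergic neurons, was likewise highest within these 3 groups in BANIC1 (6.05), BINIC1 (5.50), ISOL2 (6.10) and ISOL3 (6.09), but BINIC1 stood below several fish of the other groups. This order within groups is looser than that over all 12 fish, and its share of all genes was not counted. It also held for mao, for slc7a5 of the uptake list and for the transcription factor gene lmx1bb, among others. fev was lowest in BIC3 (3.59), next lowest in ISOL2 (3.62), and lowest within its group in BANIC1 (3.63) and BINIC1 (3.77). None of the 16 measured genes for transcription factors of serotonergic neurons and none of the 14 other serotonin receptor genes had these 4 fish highest over all 12, nor did any marker of neurons (10), the pituitary (7) or blood (5). Of 17 measured genes for synthesis, packaging, uptake, melatonin and breakdown, aanat1 and asmt2 included, only aanat2 had them highest. Of 4 catecholamine neuron markers, slc6a2, the noradrenaline transporter gene, did, with 6.0, 5.72, 5.87 and 5.83 in the 4 fish. Over all 18338 genes, 106 (0.578%) had the same 4 fish highest, a count that includes tph1a and tph2, whose gap defined these fish. In 17 of the 106, both genes included, the margin to the next fish was at least as wide as that of tph1a. The widest were rcvrnb (2.38), saga (1.68) and cnga1a (1.26), which encode a recoverin, an arrestin and a cyclic nucleotide-gated channel of photoreceptor cells. The genes named in this paragraph for their margins were picked after their values were seen.

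**Figure D2:**
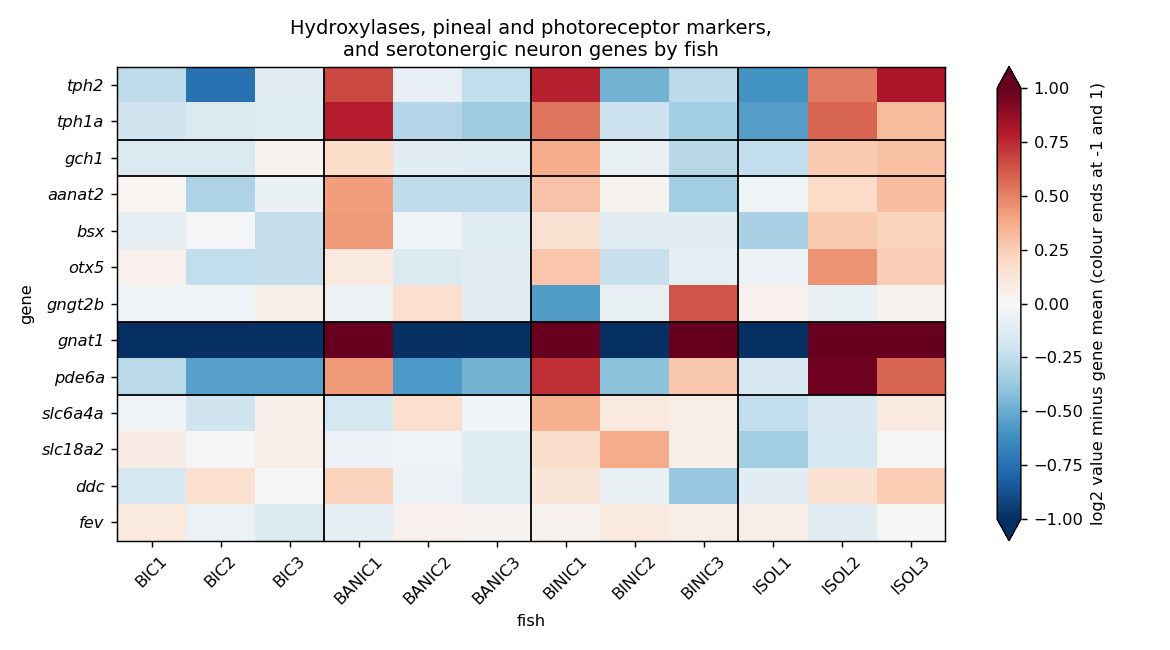
Log2 RMA value of each gene (rows) in each fish (columns) minus the mean of that gene over the 12 fish, with colours that end at -1 and 1. Rows from tph2 to otx5 are highest in BANIC1, BINIC1, ISOL2 and ISOL3, for otx5 by little, and gngt2b is not. gnat1 and pde6a are high in these fish and BINIC3, and slc6a4a, slc18a2 and fev follow another order.

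Whether watching conspecifics or attending to them went with a change of these genes was asked by comparing each group with ISOL, the reference. A gene was called when the false discovery rate from limma was under 0.05 and the absolute log2 fold change at least 1, among the 9169 more variable genes (SD across fish past the median SD). tph1a, tph2 and slc6a4a passed this filter, and for the other 7 genes the values come from the same fit over all genes. None of the 3 genes past the filter was called in BIC, where 7 genes were called in all (0.0763% of those tested). Nor was any in BANIC, where 10 were called (0.109%), or in BINIC, where 2 were called (0.0218%). These 3 comparisons share the ISOL fish. Nor was any called between BIC and BANIC (0.0218%), between BANIC and BINIC (0.0109%), between the attentive fish (BIC and BANIC) and the other fish (0.0763%), or in the test for any difference among the 4 groups (0.207%). By the looser rule of an unadjusted P under 0.05 over all genes, 0 of the 10 were picked in BIC (5.63% of all genes), 1 in BANIC (5.89%) and 0 in BINIC (9.31%). The same rule picked 1 between BIC and BANIC (4.22%), 0 between BANIC and BINIC (8.54%), 0 for attentive fish (7.2%) and 1 for any difference (8.32%). That gene was slc6a4b in all 3 cases.

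tph2 had the largest difference of the 10 genes, lower in BIC than in ISOL by a log2 fold change of -0.61 (SE 0.30, 95% interval -1.28 to 0.05, limma adjusted p = 0.882). ISOL1, at 5.03, lay among the BIC fish. The difference was -0.14 in BANIC (SE 0.32, 95% interval -0.85 to 0.58) and -0.23 in BINIC (SE 0.35, 95% interval -1.0 to 0.54), so that the intervals of both reached well to either side of 0. For tph1a the values were -0.27 in BIC (SE 0.23), -0.07 in BANIC (SE 0.32) and -0.12 in BINIC (SE 0.28), with limma adjusted p from 0.887 to 0.978. Between attentive and other fish, tph2 differed by -0.26 (SE 0.25, limma adjusted p = 0.868) and tph1a by -0.11 (SE 0.21, limma adjusted p = 0.940). With the mean of the pineal markers as a covariate over the 12 arrays, a fit chosen after seeing the data, tph2 turned to 0.07 in BIC (SE 0.26, limma adjusted p = 0.995) and tph1a to 0.34 (limma adjusted p = 0.993). The signs in the other comparisons turned as well, with 0.21 for tph2 and 0.23 for tph1a in BANIC. Of the 4 markers, 3 have the same fish highest as tph2 and tph1a. So this fit takes out much of their difference by design, and no cause was tested.

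**Figure D3:**
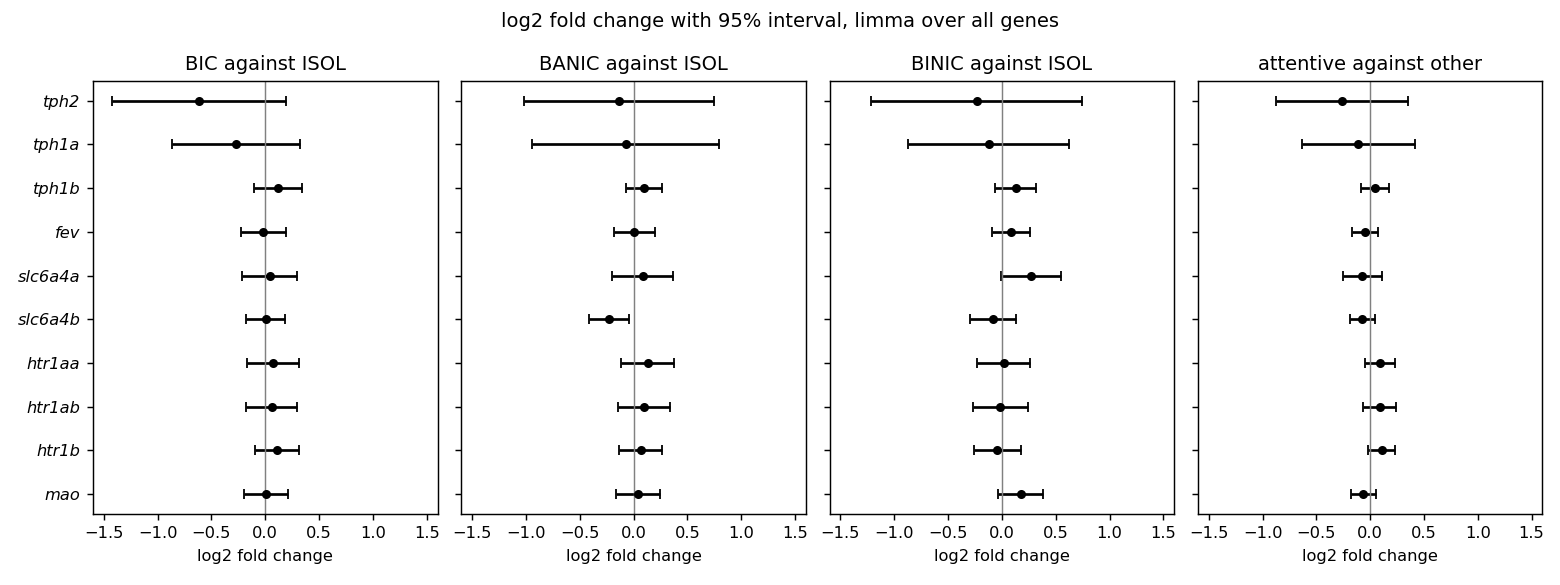
Log2 fold change of each gene (horizontal axis) in BIC, BANIC and BINIC against ISOL, and in attentive against other fish, from limma over all 18338 genes; points are estimates and bars 95% intervals, a little wider for tph2 and tph1a than in the fit of filtered genes. The bars of tph2 and tph1a are the longest and all cross 0, and the 1 bar that misses 0 belongs to slc6a4b in BANIC.

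The other 8 genes differed less. In the fit over all genes their log2 fold changes lay between -0.02 and 0.12 in BIC, with all 95% intervals inside -0.23 to 0.34. In BANIC they lay between -0.23 and 0.13, and in BINIC between -0.08 and 0.27, with all intervals inside -0.42 to 0.37 and -0.29 to 0.55. So at this size of study a doubling or halving of the array value was outside the interval of each of the 8 genes against ISOL. The background share of low signals such as those of fev and tph1b was not tested, so the same cannot be said of their RNA. The median over the 10 genes was 0.02 in BIC, 0.05 in BANIC and -0.00 in BINIC, against -0.01, -0.01 and 0.01 over all genes.

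fev, the zebrafish gene for the ETS factor known in mammals as Pet1, which switches on the serotonergic program in raphe neurons, varied little between fish. It measured 3.83, 3.67 and 3.59 in BIC, 3.63, 3.78 and 3.76 in BANIC, 3.77, 3.83 and 3.79 in BINIC, and 3.80, 3.62 and 3.73 in ISOL. All groups overlapped, and the group means ran from 3.70 to 3.80. Its signal was low, at percentile 14.8 of the gene means on the array, and how much of such a signal is background was not tested, nor was it for otx5 (percentile 4.48).

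The serotonin transporter takes serotonin back into the neuron, and zebrafish have 2 genes for it. slc6a4a measured 5.90, 5.74 and 5.98 in BIC, 5.76, 6.10 and 5.91 in BANIC, 6.29, 6.03 and 6.0 in BINIC, and 5.69, 5.78 and 6.03 in ISOL. The BINIC fish were on the high side but overlapped ISOL3, and the log2 fold change of 0.27 did not pass (SE 0.14, 95% interval -0.04 to 0.59, limma adjusted p = 0.605). slc6a4b measured 5.05, 5.10 and 5.12 in BIC, 4.89, 4.89 and 4.79 in BANIC, 4.89, 5.02 and 5.11 in BINIC, and 5.21, 5.03 and 5.02 in ISOL. All BANIC fish lay below all BIC and all ISOL fish, but 1 BINIC fish reached down to them. How many of all genes show such an order was not counted. The log2 fold change was -0.23 in BANIC against ISOL (SE 0.08, unadjusted P = 0.024, limma adjusted p = 0.813) and 0.23 in BIC against BANIC (SE 0.06, unadjusted P = 0.008, limma adjusted p = 1.0), and neither passed after adjustment over all genes. At 4.86 ± 0.06 in BANIC and 5.09 ± 0.11 in ISOL (SD, n = 3), the means stand beside a range of 5.02 to 5.21 within the ISOL fish.

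The receptors of the 5-HT1 class signal through inhibitory G proteins, and in mammals the 5-HT1A and 5-HT1B receptors also act as autoreceptors on serotonergic neurons. htr1aa and htr1ab, the duplicated genes for 5-HT1A, ranged from 5.51 to 5.89 and from 5.27 to 5.62 over the 12 fish. Both extremes of htr1aa came from the ISOL group (ISOL2 and ISOL3), as did the lowest value of htr1ab (ISOL3), and the groups overlapped throughout. htr1b measured 6.30, 6.41 and 6.46 in BIC, 6.30, 6.40 and 6.34 in BANIC, 6.20, 6.36 and 6.16 in BINIC, and 6.14, 6.37 and 6.34 in ISOL. Its 3 lowest values came from BINIC1, BINIC3 and ISOL1, but BINIC2, ISOL2 and ISOL3 lay within the range of the attentive fish. The log2 fold change between attentive and other fish was 0.11 (SE 0.06, 95% interval -0.02 to 0.23, limma adjusted p = 0.745).

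mao, the single monoamine oxidase gene of zebrafish, whose product degrades serotonin, noradrenaline and dopamine, measured 6.55, 6.46 and 6.51 in BIC, 6.58, 6.56 and 6.50 in BANIC, 6.74, 6.63 and 6.66 in BINIC, and 6.34, 6.56 and 6.60 in ISOL. All BINIC fish were above all fish of the other groups, but the lowest of them (BINIC2) stood close to ISOL3. The share of all genes that set a group apart in this way was not counted. The log2 fold change from ISOL was 0.17 (SE 0.09, 95% interval -0.03 to 0.38, limma adjusted p = 0.583).

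Of the 45 pairs among the 10 genes, Pearson's r over the 12 fish was above 0 in 20, with a median of -0.05. tph1a and tph2 formed the 1 pair with an adjusted permutation p under 0.05 (0.048), but it rests on the 4 high fish. Because these form a cluster of their own, Pearson's r of this pair over all 12 fish is not given. Within the other 8 fish r was 0.15 (exact permutation p = 0.689, two-sided) and Spearman's rho 0.10 (exact permutation p = 0.840). Without the 2 of these 8 fish farthest from their median of tph1a, r was -0.72. The 8 fish were set apart by the gap in tph2 itself, which narrows the range of both genes. So the test cannot decide whether the 2 genes vary together. For slc6a4a and mao r was above 0 (r = 0.77, two-sided permutation p = 0.004, adjusted p = 0.079, and rho = 0.74, permutation p = 0.008, adjusted p = 0.297), a relation that did not pass the adjustment. Without the 2 fish farthest from the median of slc6a4a r was 0.48, and with group means removed it was 0.60 (exact permutation p = 0.102). tph2 and mao gave r = 0.58 over all fish (permutation p = 0.047, adjusted p = 0.497, rho = 0.50, permutation p = 0.099, adjusted p = 0.555), r = 0.39 without the 2 fish farthest from the median of tph2, and r = 0.90 with group means removed (exact permutation p = 0.002, adjusted p = 0.069). These 2 pairs and that of the hydroxylases were the 3 with an unadjusted p under 0.05 for Pearson's r over all fish. By rho or within groups 3 further pairs reached that level and none passed the adjustment. tph1a and fev ran in opposite directions (r = -0.54, permutation p = 0.070, adjusted p = 0.497, and rho = -0.64, permutation p = 0.030, adjusted p = 0.343), with r = -0.66 once group means were removed (exact permutation p = 0.005, adjusted p = 0.104) and r = -0.21 without the 2 fish farthest from the median of tph1a. tph1a and mao gave r = 0.74 with group means removed (exact permutation p = 0.034, adjusted p = 0.382), and tph1b and htr1ab gave rho = 0.69 (permutation p = 0.016, adjusted p = 0.297). Relations that involve tph1a or tph2 span the 4 high fish and the other 8, so their r is a description.

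**Figure D4:**
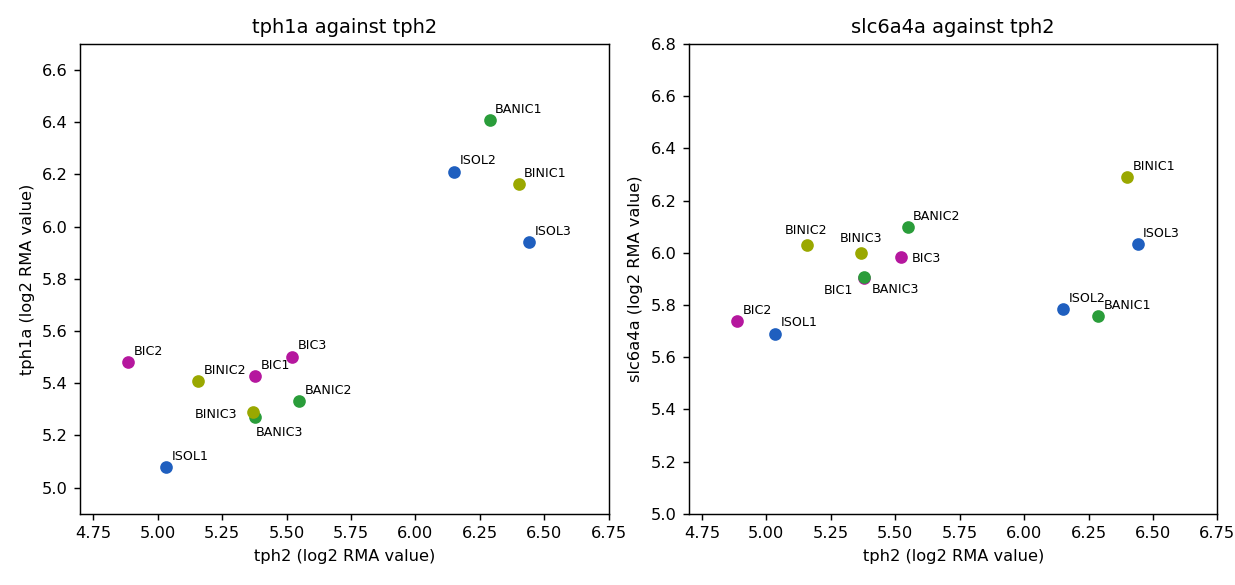
Log2 RMA values of tph1a (left) and slc6a4a (right) against tph2 (horizontal axis) in the 12 fish, coloured by group. On the left BANIC1, BINIC1, ISOL2 and ISOL3 form a corner of their own. The other 8 fish, set apart by tph2 itself, show no clear trend there. On the right slc6a4a does not separate the same 4 fish.

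The genes whose pattern over the 12 fish was most like that of tph2, by Pearson's r among 18337 others, were rlbp1a (0.94), rcvrn3 (0.94) and rcvrnb (0.94). They encode a retinaldehyde-binding protein and recoverins, proteins of the visual cycle and of photoreceptor cells. For tph1a, added to this comparison after its values were seen, they were saga (0.96), opn6a (0.95) and pde6ga (0.94), genes for an arrestin, an opsin and a rod phosphodiesterase subunit. gch1 stood at place 10 for tph2 and place 12 for tph1a, and bsx at place 7 for tph1a. slc6a4a had other company, led by dok1b (0.94), rrn3 (0.92) and scn4ba (0.91), a docking protein, an initiation factor of RNA polymerase I and a sodium channel subunit. fev was most like dcst2 (0.89), gpd1a (0.88) and zgc:174356 (0.88). These likenesses are descriptions without a test, and those of tph2 and tph1a span the high fish and the others.

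Beyond the 10 genes, 54 further genes of the pathway were measured: 14 of 19 listed receptor genes, 17 of 18 for synthesis, packaging, uptake, melatonin and breakdown, 7 of 10 for the cofactor and 16 of 17 transcription factors. None had a limma adjusted p under 0.05 in any comparison. At an unadjusted P under 0.05 over all genes, 0 of the 54 were higher and 2 lower in BIC (5.63% of all genes passed there), 2 higher and 3 lower in BANIC (5.89%), and 2 higher and 3 lower in BINIC (9.31%). Between BIC and BANIC 4 were higher and 1 lower (4.22%), between BANIC and BINIC 2 higher and 5 lower (8.54%), and in attentive fish 2 higher and 4 lower (7.2%). With so few of 54, none of these counts stands as a result about the pathway.

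The values below come from the fit over all genes unless stated, also for genes past the SD filter. The genes with the smallest P in BIC were tdo2a, for the tryptophan dioxygenase that diverts tryptophan to kynurenine (log2 fold change -0.38, SE 0.11), and insm1a, for a zinc finger factor of neuronal precursors (-0.37, SE 0.11). htr2b, for a receptor coupled to Gq (-0.41, SE 0.18), aanat2 (-0.27, SE 0.12) and slc18a2 (0.21, SE 0.10) followed, all with limma adjusted p from 0.873 to 0.897. tdo2a measured 2.85 to 3.06 in BIC and 3.16 to 3.49 in ISOL, but at a low signal (percentile 7.85 of the gene means). How much of that signal is background was not tested. In BANIC the genes were aldh2.1, for an aldehyde dehydrogenase (-0.34, SE 0.10), qdpra, for the enzyme that regenerates the cofactor (0.36, SE 0.11), tdo2a (-0.32, SE 0.10), the transcription factor gene lmx1bb (-0.17, SE 0.07) and gch2, a paralog of gch1 (0.30, SE 0.12). Their limma adjusted p ran from 0.760 to 0.835. In BINIC insm1a had the smallest P of all (-0.56, SE 0.11, unadjusted P = 0.000929, limma adjusted p = 0.262). In the fit of filtered genes its SE was 0.14 (limma unadjusted P = 0.00165, adjusted p = 0.260). The gene measured 5.50, 5.38 and 5.38 in the BINIC fish against 5.76, 6.10 and 6.09 in ISOL. It was picked from 54 genes for its P, and ISOL2 and ISOL3 are among the 4 fish with high tph2. How many of all genes separate these groups was not counted. slc18a2 (0.37, SE 0.12), slc29a4b, for a plasma membrane monoamine transporter (0.27, SE 0.09), and the engrailed genes en2b (-0.21, SE 0.08) and en1a (-0.37, SE 0.16) followed, with limma adjusted p from 0.466 to 0.537.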

How the data were processed

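Total RNA of 12 whole brains, 1 per array, was measured with the Affymetrix Zebrafish Gene 1.1 ST design. The authors pre-processed the arrays with oligo by RMA, and the deposited table holds log2 values (0.932 to 12.5) of 23467 probe sets, not centred on any gene or group. Raw intensities were not used here, so background correction and quantile normalization could not be varied, and such values have no depth. The platform annotation names 20871 probe sets. It gives 1 symbol for 19790 and several for 1081. Symbols were updated through Entrez IDs with RefSeq (assembly GRCz12tu), which holds 18243 of the 18338 genes. Each gene was represented by its probe set with the highest mean. The fit took the 9169 genes with an SD across fish higher than the median SD of 0.127.

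Following the methods of the authors, limma 3.58.1 (R 4.3.3) was run on the 6 arrays of each pair of groups, with Benjamini-Hochberg adjustment. Attentive against other fish and the F test used all 12. Correlations were tested with 100000 permutations, or exactly (1296 arrangements within groups), in SciPy 1.17.1. The procedures were tested on simulated data. The groups were taken from the labels. They do not pair the fish by replicate number. Alternatives were other filters, probe set choices, variance models and array sets, an unadjusted P, median centring, a replicate block, leaving out each fish, and the pineal covariate.

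The 10 genes, the pathway and marker lists and the rule for named genes were chosen with earlier results of these data known. The rule named all 10 genes, the 5 genes of the other pathway lists with the smallest P against ISOL in each group, and the 3 genes most like tph2, slc6a4a and fev.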

Additional observations from a re-analysis of the deposited data

How the results depend on the processing

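None of the 10 genes was called in 122 alternative settings, and with a replicate block 0 were called in each of the 7 comparisons. Most settings tested only 3 or 4 of them, so the rest could not be called there, and those with no filter tested all 10. Dropping dim genes in place of the SD filter took out tph1a and tph2. An unadjusted P under 0.05 was among the settings for genes past the SD filter only, and over all genes that rule picked slc6a4b. The replicate numbers only name the fish: over 18 pairs of the same number, deviations from the group means correlated between -0.15 and 0.19, and 5 of 12 arrays correlated best with their own number. The count of member pairs that passed the adjustment was 1 (tph1a and tph2). It fell to 0 with group means removed, with Spearman's rho and with arrays centred on their medians. For this pair r with group means removed was 0.88 (exact permutation p = 0.031, adjusted p = 0.382), and rho was 0.67. Both values span the 4 high fish. Within the other 8 fish r was 0.15, and -0.72 without the 2 farthest from their median of tph1a. Leaving out 1 fish gave 0 to 1 pairs, with 1 only without BIC2. The pineal covariate was chosen after seeing the data, and 3 of its 4 markers have the same fish highest as tph2 and tph1a. With it tph2 turned to log2 fold changes of 0.072 in BIC, 0.21 in BANIC, 0.16 in BINIC and 0.057 in attentive fish. In the same order tph1a turned to 0.34, 0.23, 0.23 and 0.17. Leaving out 1 fish gave -0.56 to 0.15 for tph2 in BANIC, with the sign turned without BANIC3, ISOL2 or ISOL3, and -0.65 to 0.050 in BINIC, turned without BINIC2 or ISOL3. For tph1a it gave -0.44 to 0.16 in BANIC (turned without BANIC2, BANIC3, ISOL2 or ISOL3), -0.46 to 0.11 in BINIC (BINIC3 or ISOL2) and -0.30 to 0.025 in attentive fish (BINIC1 or ISOL2). tph2 in BIC stayed lower than in ISOL, from -1.03 to -0.33. Of 210 settings over 14 named fold changes, 21 reversed a sign, and the cause was not tested.

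The number of genes called over the whole array depended on the settings. In BIC, BANIC and BINIC, 7, 10 and 2 genes became 3, 4 and 2 without the filter on SD, 4, 1 and 0 after dim genes were dropped, and 11, 13 and 2 with the replicate block. Leaving out 1 fish gave 5 to 25, 4 to 34 and 2 to 29, with the highest counts without ISOL1 for BIC and without ISOL2 for BANIC and BINIC. Fitting all 12 arrays gave 9, 6 and 0, and 4, 3 and 0 with the covariate. Moderation with a trend and robust variance gave 7, 12 and 3. BIC against BANIC went from 2 to 1 without the filter or the dim genes, and to 0 over all 12 arrays. It gave 3 with the most variable probe set. BANIC against BINIC went from 1 to 0 without dim genes, 2 with the block, with probe sets averaged and with arrays centred, 4 with trend and 5 over all 12 arrays. The F test went from 19 to 4 without the filter, 7 without dim genes, 33 with trend, and to 7 with the covariate. Leaving out 1 fish gave 1 to 4 genes for BIC against BANIC, 1 to 6 for BANIC against BINIC, 6 to 12 for attentive fish (main value 7) and 9 to 39 for the F test. With 3 fish per group, the 95% interval of tph2 in BIC was -1.28 to 0.05, so a change of that size was not resolved.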
